A study of Oryza sativa with 3 samples.

Results

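Fragments of the transfer RNAs for threonine (tRNA-Thr) and tryptophan (tRNA-Trp) were described in rice (Oryza sativa) spores. They were taken as every listed sequence with the anticodon AGT, CGT, TGT or GGT (tRNA-Thr) or CCA (tRNA-Trp), written in DNA letters as in the lists. This gave 851 of 18424 distinct sequences, 588 for tRNA-Thr and 263 for tRNA-Trp. The spores came from field-grown plants of cultivar Guichao No.2 and were separated on a sucrose gradient into 3 stages: uninucleate microspores (UNM), bicellular pollen (BCP) and tricellular pollen (TCP), with no treatment and 1 small RNA library each. The BCP list held 702 of these sequences with 24254 of 4958412 reads, and the UNM list held 242 with 1809 of 686685 reads, so BCP was 7.22 times deeper. The TCP list held 301 of these sequences, and its numbers were not used as reads. The lists hold tRNA fragments only, so the labelled stages could not be checked against cell type markers.

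A tRNA folds into an acceptor stem, a D arm, an anticodon arm and a T arm. Its gene ends at the discriminator base, position 73 of the standard numbering. The longer precursor is cut there, its trailer is removed, and an enzyme then adds the bases CCA that carry the amino acid. Cuts in or near the anticodon loop leave a 5′-side and a 3′-side fragment, and such fragments are frequent in plant reproductive tissue and under stress. Threonine is read by several anticodons and tryptophan by a single anticodon. The rice assembly ASM3414082v1 annotates 16 nuclear tRNA genes for threonine with anticodon TGT, 5 with CGT, 7 with GGT and 11 with AGT, and 20 for tryptophan. It also annotates 1 mitochondrial gene for tryptophan. Fragments were not tied to single genes, nor to the nuclear, mitochondrial or plastid genome, since no gene sequences were used here.

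The sequences that carry most of the reads are shown because they show which side of each tRNA was sequenced. In the first pair, the leading TGT fragment (form A) and its closest relative (form B), capitals mark the bases at which the forms differ.
Form A: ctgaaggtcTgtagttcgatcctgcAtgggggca
Form B: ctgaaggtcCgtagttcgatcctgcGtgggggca
Counted from the 5′ end of form A, the differences are T10C and A26G. They lie at tRNA positions 49 and 65, which face each other in the T stem, so form A has a T and A pair there and form B a C and G pair. In the next sequences, capitals mark the T-arm motif GTTCNANNC, which spans positions 53 to 61 in the tRNA and was searched on the read strand only.
Trp, 3′ side: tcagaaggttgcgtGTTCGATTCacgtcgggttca
Thr CGT, 3′ side: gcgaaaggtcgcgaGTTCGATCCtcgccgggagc
Thr AGT, 3′ side: GTTCGACTCtcaacgagagca
The last group holds no such motif and is written in lower case throughout.
Thr CGT, 5′ side: gcttccgtagcatagtggtagtg
Thr GGT, 5′ side: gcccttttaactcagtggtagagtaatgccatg
Trp, D arm to anticodon loop: cggtagaacgcgggtc

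Fragments of tRNA-Thr took a larger share of tRNA-derived reads, though not of distinct sequences, in bicellular pollen than in microspores. They made up 0.448% of BCP reads (22213 reads, exact 95% interval 0.442 to 0.454) and 0.227% of UNM reads (1562 reads, 0.216 to 0.239). The ratio of the shares was 1.97 (1.87 to 2.07), and its log2 value of 0.98 turned to -0.086 when distinct sequences were counted in place of reads. Distinct sequences were counted at full depth, 7.22 times deeper in BCP, without thinning. Fragments of tRNA-Trp made up 0.0412% of BCP reads (2041 reads, 0.0394 to 0.0430) and 0.0360% of UNM reads (247 reads, 0.0316 to 0.0407), a ratio of 1.14 (1.002 to 1.31). Thr ranked 16 and Trp 18 of 20 amino acid groups by share, in BCP and in UNM alike. With 1 library per stage there is no replicate check and no test, and the intervals cover counting error only. In bulk RNA, fewer cells of a type and less RNA per cell cannot be told apart. A share also moves with the rest of the library: as a share of reads outside tRNA-Asp, the log2 ratio was 1.61 for Thr in place of 0.98 and 0.83 for Trp in place of 0.19.

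The anticodon TGT held most of the Thr reads. It had 21000 reads in BCP, 0.424% of the library, and 1508 in UNM, 0.220%, a ratio of 1.93 (1.83 to 2.03). CGT had 745 reads in BCP and 43 in UNM, a ratio of 2.40 (1.76 to 3.34). GGT had 352 reads in BCP and 3 in UNM, a ratio of 16.2 with a wide interval (5.51 to 79.2) because of the 3 reads. AGT had 116 reads in BCP and 8 in UNM, and its ratio of 2.01 had an interval that included 1 (0.986 to 4.76). The 4 Thr anticodons thus lay in the order TGT, CGT, GGT and AGT in BCP. In UNM the intervals of GGT and AGT overlapped, from 9.01e-05% to 0.00128% for GGT and from 0.000503% to 0.0023% for AGT.

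Thr fragments were mostly long in bicellular pollen and mostly short in microspores. Of the Thr reads, 83.9% in BCP (83.4 to 84.4) and 31.9% in UNM (29.6 to 34.3) were at least 30 nt long, a difference of 52.0 percentage points (49.6 to 54.3). Those of at most 20 nt were 9.71% in BCP and 64.0% in UNM. The median Thr read had 33 nt in BCP and 17 nt in UNM, and the most frequent lengths were 34 nt, with 25.4% of BCP reads, and 13 nt, with 16.2% of UNM reads. Of the Trp reads, 43.9% in BCP (41.8 to 46.1) and 25.5% in UNM (20.2 to 31.4) were long, a difference of 18.4 points (12.3 to 23.9). Without the most abundant Trp sequence of each library, of 16 nt in BCP and 35 nt in UNM, this difference was 38.7 points. All other anticodons together had 50.6% long reads in BCP and 3.97% in UNM. Thr therefore held a higher share of long reads than the rest in both libraries, and ranked 2 of 20 amino acid groups in BCP and 3 of 20 in UNM. The anticodons within Thr differed among themselves in BCP, with 86.2% long reads for TGT, 90.9% for GGT, 26.8% for CGT and 16.4% for AGT.

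Most of the long reads came from the 3′ side of these tRNAs, whereas the reads of the other tRNAs together were mostly 5′. A fragment was called 5′ when the motif of positions 8 to 14 (T, purine, any base, pyrimidine, any 2 bases, A) lay where a start at positions 1 to 3 puts it. Such fragments held 4.05% of Thr reads in BCP and 1.60% in UNM, and 1.62% of Trp reads in BCP and 1.62% in UNM. For all other anticodons they held 87.9% of reads in BCP and 82.1% in UNM. Thr and Trp had the lowest such shares of the 20 amino acid groups in both libraries, but other groups were low as well. The next lowest in BCP were Lys with 8.54% in BCP and 2.72% in UNM, Ile with 13.1% and 10.4%, and Asn with 16.7% and 22.4%. The pool of all other anticodons includes large groups that were mostly 5′, such as Asp with 99.5% in BCP and 94.5% in UNM. The rule leaves out 5′-side fragments that start further inside the tRNA, such as the 16-nt Trp fragment, which starts at position 17. Its group held 723 of 2041 Trp reads in BCP and 14 of 247 in UNM. Fragments too short to hold the motif could not be placed, so the shares among reads of at least 30 nt were compared as well. Among these, 5′ fragments held 1.90% of Thr reads in BCP and 0.803% in UNM, against 93.4% and 89.2% for all other anticodons in BCP and UNM.

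The 3′ ends of the long reads were placed with the T-arm motif, from whose first base a tRNA runs 21 bases to position 73. The motif occurs in 47.2% of all BCP sequences and 43.0% of all UNM sequences of at least 30 nt, but in only 2.04% and 5.37% of their reads. Of long Thr reads, 58.9% in BCP (58.2 to 59.6) and 74.3% in UNM (70.2 to 78.1) ended exactly at position 73. Of long Trp reads, 54.3% in BCP (51.0 to 57.6) and 87.3% in UNM (76.5 to 94.4) did. For all other anticodons this share was 0.285% in BCP and 0.998% in UNM. No Thr or Trp read of at least 30 nt ended with CCA 3 bases past position 73, among 19533 in BCP and 561 in UNM. This allows shares of up to 0.0189% in BCP and 0.655% in UNM (exact 95% limits). Reads without the whole motif could not be checked by this rule. Of reads of any length, 3116 of 24254 in BCP and 1182 of 1809 in UNM could not be placed. Across all other anticodons such CCA ends had 113 reads in BCP and 1 in UNM. Whether reads with an added CCA could map under the settings of the deposited lists was not tested.

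Nearly all TGT reads fell on the 3′ side shown as form A and form B. Of 21000 BCP reads, 20938 matched one or both forms or ran past their end, as did 1499 of 1508 UNM reads. The 5′ side of TGT fragments, by the motif of positions 8 to 14, had 4 reads in BCP and 1 in UNM. Shared sequence with other anticodons was rare. Across all lists, 7 sequences with other anticodons lay inside a Thr or Trp sequence, with 15 reads in BCP and 13 in UNM, and the longest had 15 nt. Conversely, 6 of the 851 Thr and Trp sequences lay inside a sequence of another amino acid, with 16 reads in BCP and 2 in UNM.

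Within the TGT reads, most 5′ ends lay in the same window in both libraries, while the 3′ ends lay apart. Starts at positions 38 to 42, on the 3′ side of the anticodon (positions 34 to 36), held 79.4% of reads in BCP (78.8 to 79.9) and 83.3% in UNM (81.3 to 85.2). The most frequent start was position 40, the first base of form A, with 34.6% of reads in BCP and 46.0% in UNM. Start 39 held 12.2% in BCP and 29.5% in UNM, and start 42 held 20.5% in BCP and 1.87% in UNM. The ends, in contrast, lay at position 73 for 52.7% of reads in BCP (52.0 to 53.3) and 24.7% in UNM (22.6 to 27.0). Position 72 ended 22.2% of reads in BCP and 5.27% in UNM. In UNM, many reads ended at the border of T stem and T loop. Ends at position 52 held 0.258% of reads in BCP and 24.95% in UNM, ends at position 54 held 6.05% and 22.2%, and ends at position 56 held 1.76% and 10.5%, in BCP and UNM in this order. Reads that started at positions 38 to 42 and were at most 20 nt long therefore made up 6.96% of TGT reads in BCP and 52.3% in UNM, and those of at least 30 nt 71.5% in BCP and 29.95% in UNM.

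Form A and form B were both present in each library, in different proportions. Form A had 12779 reads in BCP and 1125 in UNM, a ratio of shares of 1.57 (1.48 to 1.67). Form B had 8159 reads in BCP and 372 in UNM, a ratio of 3.04 (2.74 to 3.38). Among reads that tell the forms apart, form A made up 61.03% in BCP (60.4 to 61.7) and 75.2% in UNM (72.9 to 77.3). The same order held within long reads, at 60.2% in BCP (59.5 to 60.9) and 69.9% in UNM (65.6 to 73.9), and within reads of at most 20 nt, at 69.7% and 78.0% in BCP and UNM. Long reads made up 85.3% of form A and 88.2% of form B in BCP, and 30.3% of form A and 39.5% of form B in UNM.

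The lengths that the lists hold limit these comparisons at the long end. The longest sequences have 39 nt in BCP and 40 nt in UNM and TCP. Neither BCP nor UNM lists any sequence of 38 nt, UNM lists none of 39 nt, and BCP lists 1 of 37 nt. The 39-nt sequences held 10.8% of Thr and Trp reads in BCP, against 0.528% of the reads of all other anticodons, and the 40-nt sequences held 1.55% of Thr and Trp reads in UNM, against 0.0753%. Of the 25 Thr and Trp sequences of 39 nt in BCP, 15 were the first 39 bases of a listed 40-nt sequence. Fragments that start at positions 36 to 38 and end at position 73 would have 36 to 38 nt, and of Thr and Trp sequences BCP lists none of these lengths while UNM lists 1, of 36 nt with 2 reads.

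TGT reads that ran past position 73, where a precursor has its trailer, were seen almost solely at the longest length. They numbered 2354 of 20938 reads in BCP (11.2%, 10.8 to 11.7) and 4 of 1499 in UNM (0.267%, 0.0728 to 0.682). Of these, 2345 in BCP and all 4 in UNM had the longest length of their list. The first base after position 73 was A in 79.2% and T in 20.8% of the BCP reads, A in all 4 UNM reads, and C in none. The leading sequence, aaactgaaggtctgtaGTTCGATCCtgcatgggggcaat with 2 bases past position 73, had 1197 reads in BCP and 0 in UNM, 55.3-fold higher with UNM set to 3 counts (lower limit 44.9). A second one, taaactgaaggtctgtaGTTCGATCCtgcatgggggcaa with 1 base past it, had 475 reads in BCP and 0 in UNM, 21.9-fold higher by the same setting (lower limit 17.8). UNM lists no sequence of 39 nt, so neither fold has a matching length there. Per the labels, BCP fragments reach 41 nt while its list stops at 39 nt, so the last base of a 39-nt sequence may be the end of the read and not of the fragment, which was not tested. Runs past position 73 made up 15.8% of form A and 4.09% of form B in BCP.

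Single sequences were compared when they had at least 50 reads summed over both libraries, and called when the share differed at least 2-fold with an interval that excluded 1. This left 58 of the 775 Thr and Trp sequences listed in BCP or UNM. Of these 40 were higher and 10 lower in BCP, against 68.2% higher and 17.2% lower among all 1794 sequences compared, so the shares of called sequences lay near the background. The median log2 ratio was 2.33 for the 58 sequences and 2.01 for all. Length separated the calls: of 37 long sequences 34 were higher and 1 lower, whereas of 16 sequences of at most 20 nt 1 was higher and 9 lower. Among all long sequences, 482 of 521 were higher and 15 lower, and among all short ones 367 of 831 were higher and 272 lower. The 15 Thr and Trp sequences with no UNM read count as higher by the rule at this minimum, and the 1 with no BCP read as lower.

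The long TGT fragments illustrate the rises. Form A of 34 nt had 3688 reads in BCP and 121 in UNM, 0.0744% and 0.0176% of the libraries in this order, 4.22-fold higher in BCP (3.52 to 5.10). It was the leading Thr sequence of BCP and the second most abundant in UNM. The version that starts 2 bases later, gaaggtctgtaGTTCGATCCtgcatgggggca, had 1648 reads in BCP and 5 in UNM, 45.6-fold higher (19.5 to 141). Its form B counterpart, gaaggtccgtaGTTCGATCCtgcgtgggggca, had 959 reads in BCP and 6 in UNM, 22.1-fold higher (10.1 to 60.5). A start at position 42 was thus frequent in BCP and rare in UNM for both forms. The 30-nt version that starts at position 44, aggtctgtaGTTCGATCCtgcatgggggca, had 168 reads in BCP and 1 in UNM, a ratio of 23.3 (4.12 to 924). Form B of 34 nt had 1235 reads in BCP and 53 in UNM, 3.23-fold higher (2.45 to 4.33).

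Of the 15 short TGT fragments compared, 9 were lower in BCP. The 14-nt and 15-nt examples here were chosen after their values were seen. The 13-nt fragment ctgaaggtctgta, which covers positions 40 to 52, led the Thr reads of UNM. It had 7 reads in BCP and 210 in UNM, 217-fold lower in BCP (103 to 545). The 14-nt version with 1 more base at its 5′ end had 10 reads in BCP and 87 in UNM, 62.8-fold lower (32.6 to 136). The 15-nt version ctgaaggtctgtagt, which ends at position 54, had 278 reads in BCP and 101 in UNM, 2.62-fold lower (2.07 to 3.31). Fragments with these starts and an end at position 52 thus differed far more between the libraries than those with an end at position 54. Reads of 13 nt were scarcer in BCP in general, with 0.414% of the reads of all other anticodons in BCP and 7.33% in UNM. Their part in the difference of this fragment was not tested.

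A 35-nt sequence of form A was the only 1 of the 37 long sequences compared that was called lower in BCP, and this call rests on its absence from the BCP list. The fragment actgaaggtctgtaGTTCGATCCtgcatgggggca, 1 base longer than form A at the 5′ end, had 106 reads in UNM and is not in the BCP list. Taken as 0 reads in BCP and set to 3 counts, it was 255-fold lower there (lower limit 204). Its form B counterpart of the same length, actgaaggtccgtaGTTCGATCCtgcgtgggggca, had 1250 reads in BCP and 41 in UNM, 4.22-fold higher (3.09 to 5.91). Both are in the TCP list. Among form A reads that start with actgaaggtctgt, 8.46% in BCP and 38.8% in UNM were long, against 90.6% in BCP and 49.5% in UNM for those of form B that start with actgaaggtccgt. Whether the absence is a gap in the list or in the library was not tested, and it bears on the shares of form A, of start 39 and of ends at position 73. An alternative chosen after seeing the data left out the 35-nt sequences of both forms. Form A then made up 64.9% in BCP and 75.5% in UNM, start 39 held 6.57% in BCP and 21.8% in UNM, and position 73 ended 49.7% of reads in BCP and 16.6% in UNM.

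Fragments of tRNA-Trp fell mainly into a 3′-side group and a group that ends in the anticodon loop. A 32-nt sequence with 1 read in BCP and 0 in UNM shares bases up to the anticodon with the second group. It runs through the anticodon into a 3′ side unlike that of the first group. A 22-nt sequence that lies inside it had 0 reads in BCP and 1 in UNM. By these reads the groups would belong to different tRNAs, which was not tested. The 3′-side sequence shown above and its nested or extended versions held 1166 of 2041 Trp reads in BCP (57.1%) and 223 of 247 in UNM (90.3%). Its 35-nt fragment, positions 39 to 73, had 327 reads in BCP and 53 in UNM, a ratio of 0.854 whose interval included 1 (0.638 to 1.16). The 34-nt version without the last base had 110 reads in BCP and 6 in UNM, 2.54-fold higher (1.13 to 7.07). The group of sequences that overlap it had 1177 reads in BCP and 222 in UNM, a ratio of 0.734 (0.636 to 0.851). Within the 3′-side reads, long ones that start at positions 38 to 42 made up 74.5% in BCP (71.9 to 77.0) and 26.9% in UNM (21.2 to 33.2). Reads of at most 20 nt that start at positions 55 to 62, in the T loop and the following stem, made up 6.35% in BCP and 39.9% in UNM. The most abundant of these in UNM, chosen after its value was seen, was the 13-nt tcacgtcgggttc (positions 60 to 72), with 2 reads in BCP and 32 in UNM.

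The other Trp group took a larger share in bicellular pollen. Its leading fragment, the 16-nt cggtagaacgcgggtc, had 416 reads in BCP and 3 in UNM, 19.2-fold higher in BCP (6.53 to 93.5), and was the most abundant Trp sequence of BCP. Counted from the anticodon in a longer listed version, it ends at position 32, before the anticodon. It is the 1 short sequence among the 16 compared that was higher. The group of sequences that overlap it held 723 reads in BCP and 14 in UNM, a ratio of 7.15 (4.23 to 13.1). Without the most abundant Trp sequence of each library, the log2 ratio of all Trp reads was -0.087 in place of 0.19, so the direction for Trp rests on these sequences.

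The less abundant Thr anticodons were sequenced from different sides. CGT fragments were 5′ for 77.0% of reads in BCP (73.9 to 80.02), and for 48.8% in UNM (33.3 to 64.5). In UNM 16 of 43 CGT reads (37.2%) could not be placed, against 17 of 745 (2.28%) in BCP. The leading one, the 23-nt gcttccgtagcatagtggtagtg, had 405 reads in BCP and 0 in UNM, 18.7-fold higher with UNM set to 3 counts (lower limit 15.1). The leading 3′-side CGT fragment, of 34 nt and ending 1 base before position 73, had 73 reads in BCP and 0 in UNM. GGT fragments were 5′ for 90.6% of reads in BCP (87.1 to 93.5) and for all 3 reads in UNM. Their 33-nt sequence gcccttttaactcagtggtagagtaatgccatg had 141 reads in BCP and 0 in UNM, 6.51-fold higher by the same setting (lower limit 5.22). It ends at position 34, the first base of the anticodon. Its 31-nt version, which ends at position 32, had 84 reads in BCP and 0 in UNM, 3.88-fold higher (lower limit 3.08). For AGT, no sequence reached 50 summed reads. Its leading fragment in BCP, the 21-nt GTTCGACTCtcaacgagagca with 19 reads in BCP and 0 in UNM, runs from the first base of the T-arm motif to position 73.

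Argonaute proteins of plants sort small RNAs partly by their 5′ base. Thr reads began with C in 32.9% of BCP and 45.0% of UNM reads, with A in 22.3% and 33.9%, with G in 26.4% and 5.70%, and with U in 18.4% and 15.4%, in BCP and UNM in this order. Trp reads began with U in 44.98% of BCP and 71.3% of UNM reads. In all other anticodons G led, with 78.1% of BCP and 77.9% of UNM reads. For TGT reads the first bases follow from the start positions given above. Form A and form B begin with C at position 40, A at position 39 and G at position 42. Of the Thr reads that began with G, CGT held 691 in BCP and 31 in UNM, and GGT held 337 in BCP and 3 in UNM.

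Presence in tricellular pollen was read from its list. The TCP list held 229 Thr and 72 Trp sequences, of which 97 Thr (42.4%) and 12 Trp (16.7%) were at least 30 nt long, against 25.6% of all TCP sequences. Of the 702 Thr and Trp sequences of BCP, 208 were listed in TCP (29.6%), and of the 242 of UNM, 117 were (48.3%). Among all sequences these shares were 41.9% for BCP and 54.96% for UNM. Of the 58 sequences with at least 50 summed reads, 48 were in the TCP list (82.8%, against 91.2% of all 1794). The 7 of 39 nt are absent there, where no sequence of that length is listed, and without this length 48 of 51 were in TCP (94.1%), against 92.9% of all. Both 34-nt forms of TGT, the 35-nt Trp fragment, the 16-nt Trp fragment and the leading CGT and GGT fragments were listed in TCP, whereas the 13-nt ctgaaggtctgta was not.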

How the data were processed

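Small RNA lists of 3 libraries were used, 1 per stage. Per the file headers, each deposited list gives anticodon, sequence and count. The UNM and BCP count the authors deposited is whole reads per distinct sequence, not normalized. The TCP numbers, between 1 and 28, were used only for presence. Per the submitters' processing notes, Bowtie 1.1.2 was a tool of the study. Reference, build and trimming: not given in the sources used here. Labels came from each list itself, and 2 Thr or Trp sequences differed in label between lists. Depth was 4958412 reads in BCP and 686685 in UNM, so a count of 0 allows up to 6.05e-05% and 0.000437% of reads in BCP and UNM (3 counts).

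Shares have exact Clopper-Pearson 95% intervals, ratios exact conditional binomial intervals, and differences of shares Newcombe intervals (Python 3.11.15, scipy 1.17.1). A 0 was set to 3 counts for the ratio only. The libraries carry no stated molecular identifiers, and the intervals hold counting error alone. The calls were tested on simulated data. Named sequences are, from 50 reads on, the 3 most abundant per anticodon and library, and the 5 largest rises and falls after reduction to the most abundant per first 13 nt. Of the falls by that rule the only one with an interval below 1 was actgaaggtctgtagt, 1.71-fold lower (1.33 to 2.19). Placement by the T-arm motif, by form and by anticodon, and one length setting, were added after the data were seen, and 5′ placement uses a motif rule. Members and lists were chosen with earlier results of these data known.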

Additional observations from a re-analysis of the deposited data

How the results depend on the processing

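Of 36 recomputed values, 17 stayed within the counting interval or, for counts of sequences, within 1.5 times. The Thr log2 ratio of 0.98 was 1.61 as a share of reads outside tRNA-Asp, 0.76 with 13 to 33 nt only, 1.06 without the most abundant Thr sequence of each library and 0.83 without the longest length of each list, the last chosen after seeing the data. Counted by distinct sequences it turned to -0.086. The Trp log2 ratio of 0.19 was 0.83 outside tRNA-Asp, 0.45 with 13 to 33 nt and 0.62 by distinct sequences, and turned to -0.087 without its most abundant sequences. The difference in long reads, 52.0 points for Thr and 18.4 for Trp, was 61.8 and 27.3 with 13 to 33 nt and 2.01 and 3.19 by distinct sequences, for Thr and Trp in this order. For Trp it was 38.7 without its most abundant sequences. The 40 higher sequences, 69.0% of 58, were 19 of 23 from 200 summed reads on (82.6%, against 69.8% of all sequences) and 19 of 28 with BCP thinned to the UNM total (67.9%, against 55.9%). The 10 lower ones were 32 of 155 from 10 reads on (20.6%, against 17.5%), 2 of 23 from 200 on (8.70%, against 17.8%) and 6 of 58 outside tRNA-Asp (10.3%, against 13.99%). From 10 summed reads on, 41 of 155 were higher (26.5%, against 30.4% of all). The cause of these changes was not tested. Without replicates, no paired analysis was possible because each stage has 1 library. UNM depth limits GGT and AGT, with 3 and 8 reads there.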

Other observations

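Several small groups of Thr fragments have other sequences than those described above. Whether they come from other tRNAs or from another side of the same tRNAs was not tested. A TGT group with a different T arm, led by ggttcaaatccgatagtcggct, had 46 reads in BCP and 5 in UNM, a ratio of 1.27 whose interval included 1 (0.508 to 4.11). A 3′-side GGT group, led by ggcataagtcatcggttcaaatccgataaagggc, had 23 reads in BCP and 0 in UNM. A TGT group from the 5′ side, led by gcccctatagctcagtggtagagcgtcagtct, had 5 reads in BCP and 2 in UNM.

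A Trp group from the 5′ side and the anticodon arm had 129 reads in BCP and 4 in UNM, a ratio of 4.47 (1.70 to 16.6). The leading 3′-side CGT fragments and their relatives had 166 reads in BCP and 14 in UNM, a ratio of 1.64 whose interval included 1 (0.952 to 3.07).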
